A study of Mus musculus with 22 samples.

Results

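The results below describe lipocalin 2 (Lcn2), its cell-surface receptor Slc22a17 and the acute-phase proteins Serpina3n, Cp (ceruloplasmin) and Hp (haptoglobin) in the mouse hypothalamus. The genes were chosen by name: every probe set, the group of probes that measures a transcript, was taken if the platform's annotation gave it the symbol of 1 of these genes alone. Each gene had 1 such probe set, so 5 of 23492 probe sets and 5 of 18704 named genes are described. RNA of the hypothalamus of lean male C57BL/6J mice, aged 8 weeks and kept on normal chow for 2 weeks, was measured on 22 arrays. Celastrol, a plant triterpenoid studied for its effect on food intake and body weight, was injected into the peritoneum, and control mice received the solvent, dimethyl sulfoxide (DMSO, 25 µl per day). Treatment lasted 6 h, 1 day or 4 days, with 4 DMSO arrays at each time and 4, 3 and 3 celastrol arrays in that order. The celastrol label states 250 µg per kg next to 6 h and a volume of 100 µl next to the longer treatments, so the dose at 1 day and 4 days is not known here. The mice of every group were lean, with no engineered allele named, and the labels call the arrays biological replicates without saying whether RNA of several mice was pooled. All 12 DMSO and 10 celastrol arrays were used.

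Lipocalin 2 is a small secreted protein that binds siderophores, the iron-carrying molecules of bacteria and mammals, and it is made by neutrophils, liver, bone and, in inflamed brain, by glia and blood vessels. Acute-phase proteins are secreted proteins, most of them from the liver, whose genes respond to interleukin-6 type cytokines through STAT3 and C/EBP factors and to interleukin-1 and tumour necrosis factor through NF-kB. Slc22a17 is a membrane protein of the organic cation transporter family that takes up lipocalin 2. Serpina3n inhibits serine proteases, ceruloplasmin carries copper and oxidizes iron, and haptoglobin binds free haemoglobin.

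Values are log2 intensities, so a difference of 1 is a doubling. Median values per array lay between 8.58 and 8.66. All 13 hypothalamic marker genes measured exceeded the array median in at least 3 arrays. Pmch, the melanin-concentrating hormone precursor, lay at 12.76 to 13.28 in DMSO arrays and 12.83 to 13.17 in celastrol arrays. Hcrt, the orexin precursor, lay at 12.65 to 13.32 and 12.55 to 13.11. The tissue was measured in bulk, in which fewer cells of a type and less RNA per cell cannot be told apart.

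The promoter sequences are shown for the gene with the largest difference, for an acute-phase gene with a small one and for the receptor, because the transcription factors named above act through short motifs. RefSeq (GRCm38.p6) gave the 250 bases before the start of transcription for 4 of the 5 genes, and Hp was not among them. Capitals mark matches, on either strand, to 5 motifs: GGG, NNNNN and CC in a row for NF-kB, TTCNNNGAA for STAT, TTGCNNAA for C/EBP, ACANNNTGT for the glucocorticoid receptor and ACGTG for the hypoxia response. The sequences are written 5′ to 3′ on the gene's strand, from chr2:32387740-32387989 (minus strand) for Lcn2, chr12:104406458-104406707 (plus strand) for Serpina3n and chr14:54913133-54913382 (minus strand) for Slc22a17.
Lcn2: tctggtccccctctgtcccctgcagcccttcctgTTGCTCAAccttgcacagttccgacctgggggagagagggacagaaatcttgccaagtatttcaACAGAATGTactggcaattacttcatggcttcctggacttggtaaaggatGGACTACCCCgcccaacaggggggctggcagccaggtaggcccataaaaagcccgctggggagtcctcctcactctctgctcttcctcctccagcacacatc
Serpina3n: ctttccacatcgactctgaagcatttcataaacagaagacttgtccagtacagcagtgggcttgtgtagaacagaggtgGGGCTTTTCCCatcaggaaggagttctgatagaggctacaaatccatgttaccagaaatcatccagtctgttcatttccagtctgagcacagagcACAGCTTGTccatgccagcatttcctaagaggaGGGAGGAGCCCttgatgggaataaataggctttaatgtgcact
Slc22a17: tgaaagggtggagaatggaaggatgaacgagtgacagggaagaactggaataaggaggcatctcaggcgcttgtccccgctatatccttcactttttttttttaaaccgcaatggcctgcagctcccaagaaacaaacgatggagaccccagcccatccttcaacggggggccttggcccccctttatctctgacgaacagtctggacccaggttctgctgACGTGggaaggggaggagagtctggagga
The Lcn2 window held 1 NF-kB type match at -102 to -93 from the start, 1 C/EBP type match at -216 to -209 and 1 glucocorticoid receptor type match at -152 to -144. The Serpina3n window held 4 NF-kB type matches that overlap in pairs, at -171 to -161 and -43 to -33, and 1 glucocorticoid receptor type match at -76 to -68. The Slc22a17 window held an ACGTG match alone, at -29 to -25. Of 32851 promoter windows of the same length, 45.8% held the NF-kB type motif, 7.0% the STAT type, 9.6% the C/EBP type, 5.8% the glucocorticoid receptor type and 16.6% ACGTG. Such matches describe letters in a window, not sites of binding.

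Lcn2 was higher in celastrol arrays than in DMSO arrays at each time, and its positive log2 difference was the largest of all 18704 genes measured at 6 h, at 1 day, at 4 days and on the average of the 3 times. By unadjusted p its rank was 495, 173, 115 and 14 of these 18704 genes (limma without a filter on level). The size of the difference varied widely between arrays, and after adjustment over all genes it did not pass the threshold of 0.05 in any of these comparisons. The top rank by size was lost in some fits. It became 2 at 6 h without celastrol 6 h replicate 2 and 3 at 4 days without celastrol 4 days replicate 1. With array weights it was 2 at 1 day.

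At 6 h the DMSO arrays had Lcn2 at 6.67, 7.49, 7.47 and 7.38, a mean of 7.25 ± 0.39 (SD, n = 4). The celastrol arrays of that time lay at 6.98, 10.48, 9.20 and 7.52, a mean of 8.55 ± 1.60 (SD, n = 4). A pair of celastrol arrays was far above every DMSO array, replicate 4 was just above them and replicate 1 lay within their range, so the groups overlapped. The difference was 1.29 on the log2 scale (SE 0.56, 95% interval 0.14 to 2.45), or 2.45-fold, with an adjusted p of 0.895 (limma, unadjusted p = 0.0299). The DMSO values are those of a dim probe set, with no detection call used here, so the folds given for Lcn2 are ratios of the deposited values and can understate the change. The limma SE, interval and p-value assume 1 spread for all 6 groups, whereas the SDs at 6 h were 0.39 and 1.60. An exact two-sided permutation test of these 8 arrays gave p = 0.2. The estimate rested on single arrays: it was 0.65 without celastrol replicate 2 and 1.82 without celastrol replicate 1.

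At 1 day Lcn2 lay at 7.0, 6.61, 7.03 and 7.01 in DMSO arrays, a mean of 6.91 ± 0.20 (SD, n = 4). The celastrol arrays lay at 10.19, 8.08 and 7.86, a mean of 8.71 ± 1.29 (SD, n = 3), and all were above every DMSO array. The difference was 1.80 (SE 0.60, 95% interval 0.55 to 3.05), or 3.48-fold, with an adjusted p of 0.698 (limma, unadjusted p = 0.00683). The exact permutation p was 0.0286, the smallest that 3 against 4 arrays can give. At this time every celastrol array was above every DMSO array for 1.81% of the genes tested and for 2.15% of all 18704 genes. Without celastrol replicate 1 the difference was 1.06.

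At 4 days Lcn2 lay at 6.61, 6.33, 6.97 and 6.66 in DMSO arrays, a mean of 6.64 ± 0.26 (SD, n = 4). The celastrol arrays lay at 9.70, 8.32 and 7.78, a mean of 8.60 ± 0.99 (SD, n = 3), and again all were above every DMSO array. That held for 4.27% of the genes tested and for 4.03% of all 18704 genes. The difference was 1.96 (SE 0.60, 95% interval 0.71 to 3.21), or 3.89-fold, with an adjusted p of 0.741 (limma, unadjusted p = 0.00365). The exact permutation p was again 0.0286.

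On the average of the 3 times the difference of Lcn2 was 1.68 (SE 0.34, 95% interval 0.98 to 2.39), or 3.21-fold. In 9 of 10 celastrol arrays Lcn2 exceeded the DMSO mean of its time. At least 9 arrays did so for 3.02% of the genes tested, a share not taken over all 18704 genes. The adjusted p was 0.0813 over the 9880 genes tested (limma, unadjusted p = 5.76e-05) and 0.13 over all 18704 genes (limma without a filter on level), and exchanging labels within each time gave an exact permutation p of 8.16e-05. Genes with an adjusted p under 0.05 made up 0% of those tested at 6 h, 0% at 1 day, 0.0506% at 4 days and 0.0607% on the average. By unadjusted p under 0.05 the counts at 6 h and 1 day, where no gene passed, were 505 and 658 of 9880. Leaving out celastrol 6 h replicate 1 gave an average of 1.86 and an adjusted p of 0.0132 over the genes tested and 0.0276 over all genes (limma), which pass. Without celastrol 6 h replicate 4 (1.80) the adjusted p was 0.046 and 0.0943, and without celastrol 4 days replicate 3 (1.82) it was 0.0483 and 0.0909, so these passed over the genes tested alone. Lcn2 belonged to the genes tested only through celastrol arrays. Of the 22 fits over all genes that each left out 1 array, 1 passed.

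The effect on Lcn2 was not shown to differ between times. It was larger by 0.50 at 1 day than at 6 h (SE 0.82, 95% interval -1.20 to 2.21, adjusted p = 0.883, limma) and by 0.16 at 4 days than at 1 day (SE 0.85, 95% interval -1.61 to 1.93, adjusted p = 0.98). In order of the group means, celastrol at 1 day, 4 days and 6 h came first (8.71, 8.60 and 8.55), followed by DMSO at 6 h, 1 day and 4 days (7.25, 6.91 and 6.64). The neighbours among the DMSO groups differed by -0.34 (adjusted p = 0.814, limma) and -0.27 (adjusted p = 0.852), and the celastrol means differed from each other by less than any of their SDs. DMSO at 4 days minus DMSO at 6 h was -0.61 (SE 0.56, adjusted p = 0.609, limma). Over the same span the difference between treatments grew by 0.66 (SE 0.82, adjusted p = 0.997, limma). These SEs pool all 6 groups, and the DMSO arrays spread less than the celastrol arrays. The p-values can therefore not decide whether Lcn2 drifted in DMSO arrays.

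**Figure D1:**
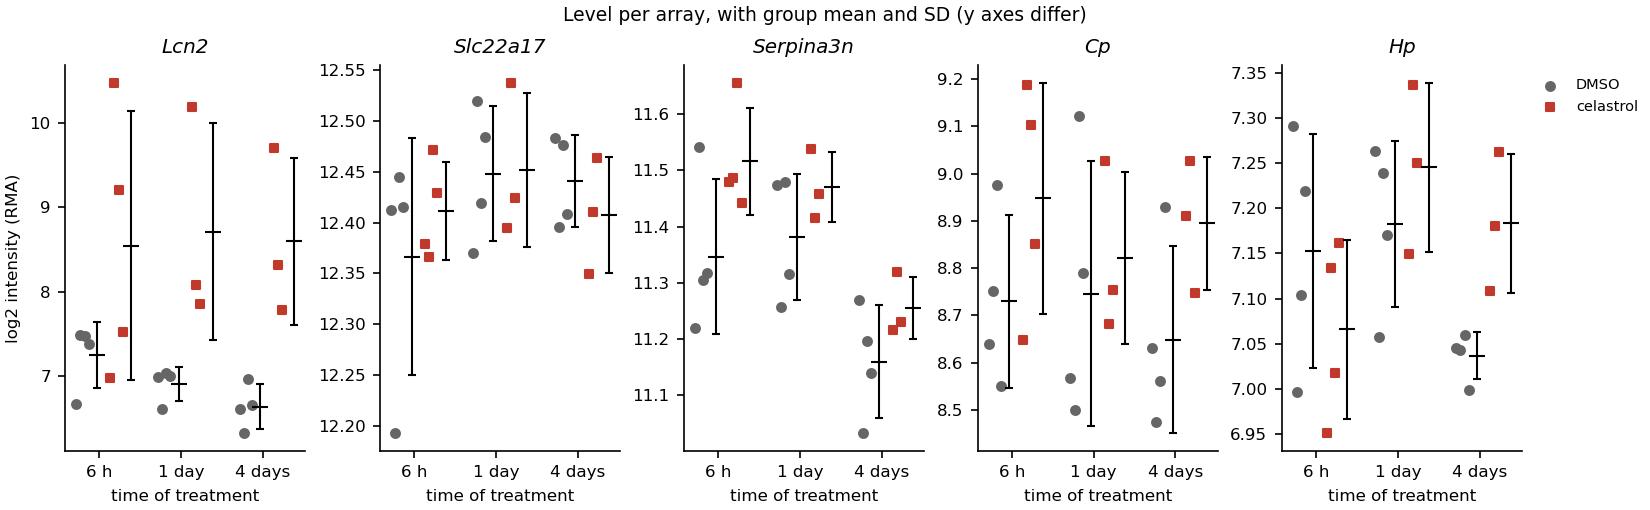
Log2 intensity of the 5 genes on each of the 22 arrays, by time of treatment. Points are arrays (grey circles DMSO, red squares celastrol), bars are the group mean and SD, and the y axes differ between genes. Celastrol arrays of Lcn2 reach 10.48 while no DMSO array exceeds 7.49, and Slc22a17 stays between 12.19 and 12.54.

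Between arrays of 1 group Lcn2 was among the most variable genes. Its residual SD of 0.93 ranked 3 of 9880 genes tested, against a median of 0.08 over all of them. Lcn2 was among these genes only through its high celastrol arrays, which also make this SD. The rank is therefore a description, and it was not taken over all 18704 genes. The DMSO arrays spread little (SD 0.20 to 0.39), and the celastrol arrays much more (SD 0.99 to 1.60). No DMSO array had Lcn2 above its array's median, and 4 of 10 celastrol arrays did.

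Slc22a17, the receptor, was bright on every array, and its values hardly moved. At 6 h it lay at 12.41, 12.19, 12.44 and 12.42 in DMSO arrays and at 12.38, 12.37, 12.47 and 12.43 in celastrol arrays. At 1 day the values were 12.37, 12.52, 12.42 and 12.48 for DMSO and 12.39, 12.54 and 12.42 for celastrol. The values of 4 days were 12.48, 12.40, 12.48 and 12.41 for DMSO and 12.35, 12.41 and 12.46 for celastrol. The groups overlapped at every time. The difference was 0.04 at 6 h, 0.00 at 1 day and -0.03 at 4 days, values so small that leaving out 1 array turned the sign at 6 h (-0.01 without DMSO replicate 2) and at 1 day (-0.04 without celastrol replicate 2). It was 0.01 on the average (SE 0.03, 95% interval -0.06 to 0.07, adjusted p = 1, limma). That interval leaves room for a change of at most 1.05-fold on the average of the times.

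Of other proteins that handle lipocalin 2, the list held Lrp2 (megalin, an endocytic receptor), Mmp9 (a metalloproteinase that lipocalin 2 binds) and Bdh2 (an enzyme of mammalian siderophore synthesis). All 3 were measured and none was bright enough to be tested. Their average differences were -0.01 for Lrp2 (SE 0.04), -0.02 for Mmp9 (SE 0.05) and -0.06 for Bdh2 (SE 0.06), a median of -0.02 against 0.00 over all 18704 genes.

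Serpina3n was bright on every array and lay slightly higher in celastrol arrays. At 6 h it lay at 11.22, 11.54, 11.31 and 11.32 in DMSO arrays and at 11.48, 11.49, 11.66 and 11.44 in celastrol arrays. At 1 day the DMSO values were 11.47, 11.26, 11.48 and 11.32 and the celastrol values 11.54, 11.42 and 11.46. The DMSO values of 4 days were 11.27, 11.03, 11.20 and 11.14 and the celastrol values 11.22, 11.32 and 11.23. The groups overlapped at each time, although each of the 10 celastrol arrays exceeded the DMSO mean of its time, which held for 0.496% of all genes tested.

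The difference of Serpina3n was 0.17 at 6 h (SE 0.07), 0.09 at 1 day (SE 0.07) and 0.10 at 4 days (SE 0.07). At 1 day it was 0.05 without DMSO replicate 2 or celastrol replicate 1, and at 4 days 0.05 without DMSO replicate 2 and 0.06 without celastrol replicate 2. On the average it was 0.12 (SE 0.04, 95% interval 0.03 to 0.20), or 1.09-fold, with an exact permutation p of 0.0111 and an adjusted p of 0.948 (limma), so it did not pass over all genes. The drift between DMSO groups was larger than this difference: DMSO at 4 days was below DMSO at 1 day by a log2 difference of -0.22 (SE 0.07, adjusted p = 0.15, limma) and below DMSO at 6 h by -0.19 (adjusted p = 0.214, limma). Genes that passed made up 0.152% and 0.253% of those tested in these comparisons of DMSO groups. Serpina3n belongs to a cluster of closely related genes, and whether its probes also take up their transcripts was not tested. Its deviations from group means moved with the mean level of astrocyte genes (r = 0.64, rho = 0.67) and of endothelial genes (r = 0.58, rho = 0.67). These were among 60 correlations with marker lists chosen after seeing the data. By permutation neither passed (adjusted p for r = 0.11 and 0.217). The part of these cells in the values of Serpina3n was not tested.

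Cp lay near the median of the arrays. At 6 h it lay at 8.64, 8.75, 8.98 and 8.55 in DMSO arrays and at 8.65, 9.19, 9.10 and 8.85 in celastrol arrays. At 1 day the DMSO values were 8.57, 8.50, 9.12 and 8.79 and the celastrol values 9.03, 8.68 and 8.75. The DMSO values of 4 days were 8.63, 8.47, 8.56 and 8.93 and the celastrol values 8.91, 9.03 and 8.75. The groups overlapped throughout, and 8 of 10 celastrol arrays exceeded the DMSO mean of their time, a count whose share over all genes was not taken.

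The difference of Cp was 0.22 at 6 h (SE 0.13), 0.08 at 1 day (SE 0.14) and 0.25 at 4 days (SE 0.14). At 6 h it was 0.14 without celastrol replicate 2 and 0.32 without celastrol replicate 1. At 1 day it was -0.03 without celastrol replicate 1, -0.01 and 0.02 without DMSO replicates 2 and 1, 0.15 without celastrol replicate 2 and 0.20 without DMSO replicate 3. On the average it was 0.18 (SE 0.08, 95% interval 0.01 to 0.35), or 1.13-fold, with an exact permutation p of 0.0593 and an adjusted p of 1 (limma). Like Lcn2, Cp varied strongly between arrays of a group, with a residual SD of 0.22 that ranked 103 of 9880 genes.

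Hp was below the median on all 22 arrays and was not among the genes tested, so its fit is the one without a filter on level, over 18704 genes. At 6 h it lay at 7.29, 7.0, 7.10 and 7.22 in DMSO arrays and at 6.95, 7.13, 7.02 and 7.16 in celastrol arrays. At 1 day the DMSO values were 7.26, 7.06, 7.24 and 7.17 and the celastrol values 7.15, 7.34 and 7.25. The DMSO values of 4 days were 7.05, 7.04, 7.06 and 7.0 and the celastrol values 7.11, 7.18 and 7.26. The groups overlapped at 6 h and 1 day and not at 4 days, where 4.03% of the 18704 genes had every celastrol array above every DMSO array.

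The difference of Hp was -0.09 at 6 h (SE 0.06), 0.06 at 1 day (SE 0.07) and 0.15 at 4 days (SE 0.07, 95% interval 0.00 to 0.29). Leaving out 1 array gave -0.04 (DMSO replicate 1), -0.05 (celastrol replicate 1) or -0.14 (DMSO replicate 2) at 6 h, and 0.02 (DMSO replicate 2 or celastrol replicate 2) or 0.11 (celastrol replicate 1) at 1 day. At 4 days the exact permutation p was 0.0286 and the adjusted p was 1 (limma without a filter on level). The average was 0.04 (SE 0.04), with 6 of 10 celastrol arrays above the DMSO mean of their time, a count whose share over all genes was not taken. At 4 days the DMSO arrays of Hp were also unusually close together (SD 0.03, against 0.09 and 0.13 at the other times). The deviations of Hp from its group means moved with the mean level of 13 neutrophil genes over 22 arrays (r = 0.69, rho = 0.74, r = 0.62 without the 2 farthest arrays) and with that of 7 liver genes (r = 0.62, rho = 0.60, r = 0.56 without the 2 farthest). These were among 60 correlations with marker lists chosen after seeing the data, and by permutation neither passed after adjustment (adjusted p for r = 0.0876 and 0.15). Hp and all 13 neutrophil genes were dim, and 2 of the 7 liver genes were bright enough to be tested. Lower quartiles per array lay between 7.01 and 7.23. Celastrol 1 day replicate 2 had the highest lower quartile, the highest Hp (7.34) and the highest neutrophil mean (6.60). The part of these cell types, or of a level shared by dim probe sets, in the values of Hp was not tested.

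**Figure D2:**
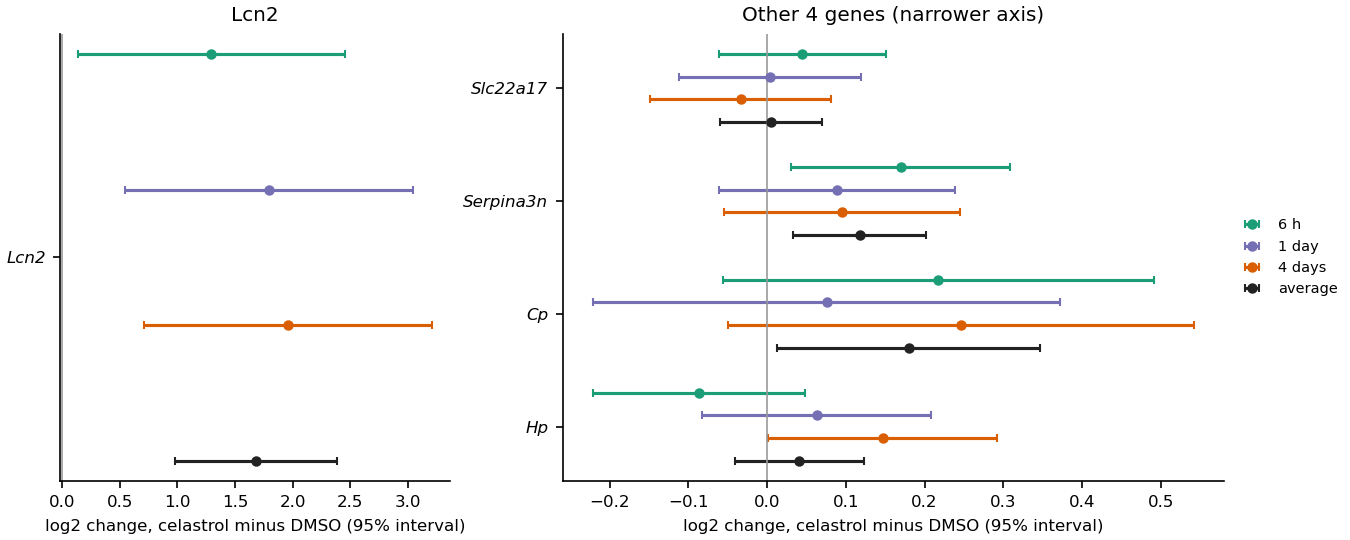
Log2 change, celastrol minus DMSO, with its 95% interval from limma, for Lcn2 (left) and the other 4 genes (right, on a narrower axis) at 6 h, 1 day, 4 days and on the average. The average is 1.68 for Lcn2, 0.18 for Cp, 0.12 for Serpina3n, 0.04 for Hp and 0.01 for Slc22a17.

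The other acute-phase genes showed no common shift. Of 40 on the list beside Lcn2, Serpina3n, Cp and Hp, 28 had a probe set of their own, 7 were bright enough to test and none passed in any comparison of celastrol with DMSO. Over all genes tested 0% passed at 6 h and 1 day, 0.0506% at 4 days and 0.0607% on the average. That none passed therefore does not set these 7 genes apart. On the average 18 of the 28 were higher, with a median of 0.01, against 54.7% and a median of 0.00 over all 18704 genes measured. Lrg1, a secreted glycoprotein of the acute phase, was highest among them with 0.35 (SE 0.09, adjusted p = 0.473, limma without a filter on level), and its difference was 0.57 at 4 days (SE 0.16). Cd14, the co-receptor for lipopolysaccharide, followed with 0.18 (SE 0.06, adjusted p = 0.771, by the same fit). Both were dim.

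**Figure D3:**
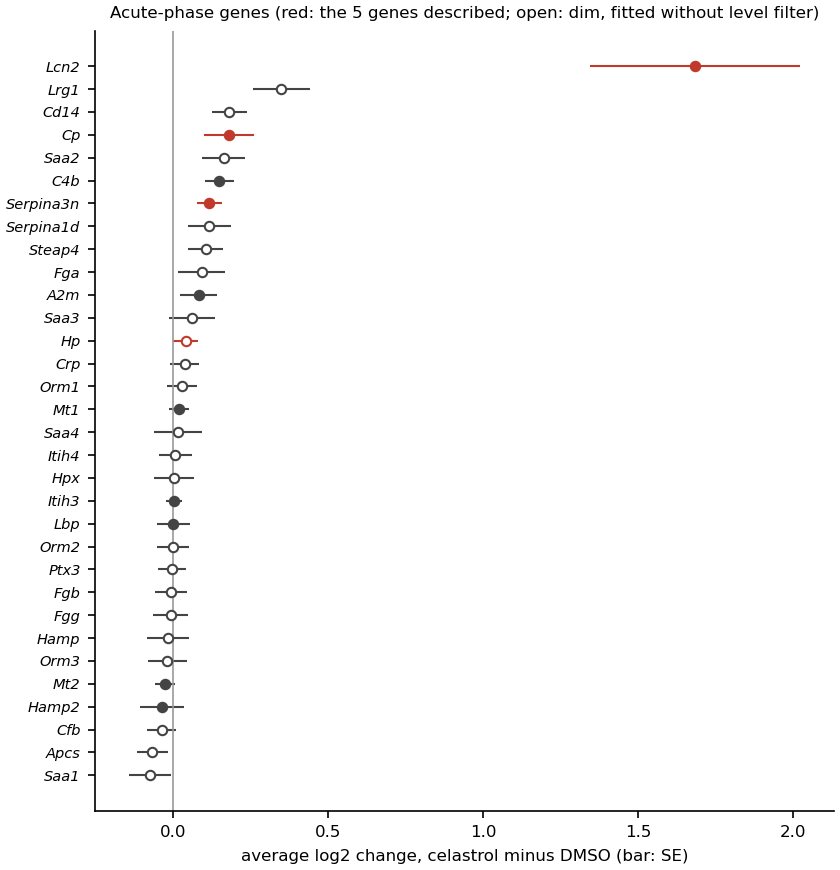
Average log2 change over the 3 times, celastrol minus DMSO, of the acute-phase genes measured, with the SE from limma. Red points are genes described here, open points are dim genes fitted without a filter on level. Lcn2 lies at 1.68, Lrg1 follows at 0.35 and the other genes lie between -0.07 (Saa1) and 0.18 (Cd14 and Cp).

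Among 26 genes of the cytokine pathways that act on acute-phase genes, 24 were measured, 10 were tested and 1 passed. Osmr, the oncostatin M receptor subunit that signals to STAT3, rose on the average by 0.77 (SE 0.10, adjusted p = 5.26e-04, limma), and by 0.84 without celastrol 6 h replicate 1. On the average 19 of the 24 were higher, with a median of 0.05, against 54.7% higher, a median of 0.00 and 0.0607% of genes called over all genes. Socs3, the feedback inhibitor that STAT3 induces, differed by 0.07 (SE 0.06), Stat3 itself by 0.06 (SE 0.03), and Cebpb, a C/EBP factor, by 0.01 (SE 0.05). Cebpd, another C/EBP factor and dim, differed by 0.17 (SE 0.06, adjusted p = 0.954, limma without a filter on level). Nfkbia, the NF-kB inhibitor that NF-kB itself induces, differed by 0.20 (SE 0.05, adjusted p = 0.276, limma), and Nfkbiz, a nuclear cofactor of NF-kB needed for Lcn2 in other cells, by 0.02 (SE 0.05).

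Of 16 genes of reactive glia, all were measured, 6 were tested and 1 passed. Over all genes tested 0.0506% passed at 4 days and 0.0607% on the average. Ptgs2 (cyclooxygenase 2, which makes prostaglandins) rose by 0.96 at 4 days (SE 0.17, adjusted p = 0.0443, limma) and by 0.76 on the average (SE 0.09, adjusted p = 4.92e-04, limma). The call at 4 days was lost in 12 of 22 fits that left out 1 array, among them each of the 4 DMSO arrays and celastrol replicates 1 and 2 of that time (0.83 to 1.12 over all 22, adjusted p up to 0.28). It was also lost with no filter on level (adjusted p = 0.065), with all probe sets (0.0557), quantile normalization again (0.0506), robust eBayes (0.0743) and the replicate number as a block (0.0604). The call on the average held in all of these fits, with 0.82 without celastrol 6 h replicate 1. On the average 13 of the 16 were higher, with a median of 0.04, and the share over all genes is the 54.7% given above. Of 20 genes of iron and siderophore handling, 19 were measured, 13 were tested and none passed, beside the same small shares of all genes tested. On the average 11 of 19 were higher, with a median of 0.01, beside the same share of 54.7% over all genes. Ferroportin (Slc40a1), the iron exporter and dim, differed by -0.22 (SE 0.05, adjusted p = 0.221, limma without a filter on level).

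The genes most like Lcn2 in value over the 22 arrays, by Pearson r among 9879 genes tested, were Osmr (0.85), Ptgs2 (0.79), Cyyr1 (0.78), Acer2 (0.77) and Tgm2 (0.77). Treatment is part of this likeness. Relative to the DMSO mean of the time, Lcn2 in the celastrol arrays of 6 h stood at -0.27, 3.22, 1.95 and 0.27. Osmr stood at 0.03, 0.73, 1.09 and 0.69 on the same arrays, and Ptgs2 at -0.03, 0.56, 1.02 and 0.54. On replicate 1, the lowest for Lcn2, Cyyr1 stood at -0.07, Acer2 at -0.16 and Tgm2 at -0.08. Since the genes were picked for likeness to Lcn2 over these same arrays, low values on that array follow from the choice. Without it r was 0.84, 0.79, 0.78, 0.77 and 0.77 over 21 arrays, in the order named. These arrays were also part of the choice, so these r values are no separate check.

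At 1 day Lcn2 stood at 3.28, 1.17 and 0.95, Osmr at 1.44, 0.74 and 0.73, and Ptgs2 at 1.11, 0.54 and 0.76. At 4 days Lcn2 stood at 3.06, 1.68 and 1.14, Osmr at 0.96, 0.74 and 0.42, and Ptgs2 at 1.21, 1.02 and 0.65. The array with the most Lcn2 at 1 day and the one at 4 days had the most Osmr and Ptgs2 of their group, whereas at 6 h these were highest in replicate 3 and Lcn2 in replicate 2. Shared high arrays, too, are favoured by the choice of these genes for likeness to Lcn2. Acer2, an alkaline ceramidase, rose on the average by 0.38 (SE 0.06, adjusted p = 0.00953, limma) and by 0.42 without celastrol 6 h replicate 1. With the replicate number as a block it was 0.37 and did not pass (adjusted p = 0.0502), while Cyyr1 (0.26, adjusted p = 0.276) and Tgm2 (0.20, adjusted p = 0.464) did not pass.

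**Figure D4:**
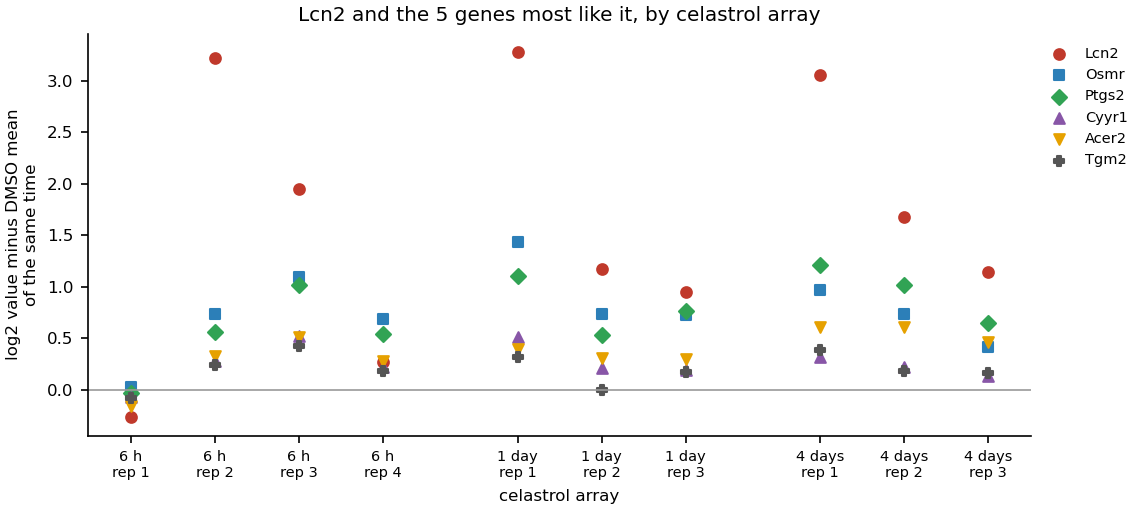
Log2 value minus the DMSO mean of the same time on each of the 10 celastrol arrays, for Lcn2 and the 5 genes with the highest Pearson r to it. The array of 6 h replicate 1 lies at -0.27 for Lcn2 and near or below 0 for the other genes, and Lcn2 reaches 3.28 on the array of 1 day replicate 1.

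After group means were removed, the genes closest to Lcn2 were Adgrl4 (0.80), Ctxn3 (0.78), Igfbp7 (0.75), Osmr (0.73) and Podxl (0.72). Adgrl4, an adhesion receptor of endothelial cells, differed by 0.09 between treatments on the average (adjusted p = 1, limma) and Igfbp7, a secreted protein abundant in vessels, by 0.15 (adjusted p = 0.691). For the receptor Slc22a17 the closest genes in value were Kctd13 and Sema6b (both 0.85), and in deviation Kctd13 and Usp29 (both 0.90). For Serpina3n they were Lsm14a (0.83) and Rab5if (0.82), and in deviation Myadm and Cnn3 (both 0.79). For Cp they were Sult1a1 (0.85) and Ifitm2 (0.81), and in deviation Fn1 (0.88) and Sult1a1 (0.84). For Hp they were Ddit4 and Col9a3 (both 0.76) after 1 non-coding RNA, and in deviation Napb (0.84) and Myrip (0.83). These r values describe likeness over 22 arrays that share their normalization, and the genes were the nearest of all genes compared.

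Within groups Cp varied with Lcn2. Deviations of Lcn2 and Cp from their group means correlated over 22 arrays with Pearson r = 0.60 (permutation p = 0.00505, adjusted over 4 genes p = 0.0202) and Spearman rho = 0.58 (permutation p = 0.00944, adjusted p = 0.0378). Without the 2 arrays farthest from the median in Lcn2, celastrol 6 h replicates 1 and 2 (deviations -1.56 and 1.93), r was 0.46 (permutation p = 0.0318, adjusted p = 0.0637), so the call rests on those arrays. Within the 10 celastrol arrays r was 0.87 (permutation p = 0.0175, adjusted p = 0.0699), and within the 12 DMSO arrays 0.38 (permutation p = 0.223, adjusted p = 0.446). The mean level of 8 meningeal marker genes moved with the deviations of Cp (r = 0.70, rho = 0.60, permutation p adjusted over 60 such correlations, chosen after seeing the data, = 0.0876; r = 0.51 without the 2 farthest arrays), and its part in the result was not tested. For Lcn2 the same marker list had r = 0.06 (adjusted p = 0.947).

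The other genes did not pass: Serpina3n had r = 0.32 with Lcn2 (rho = 0.41, permutation p for r = 0.13, adjusted p = 0.259), Slc22a17 -0.27 (rho = -0.27, permutation p = 0.209, adjusted p = 0.279) and Hp -0.17 (rho = -0.30, permutation p = 0.534, adjusted p = 0.534). Without the same 2 arrays these were 0.43, -0.32 and -0.57, with adjusted p of 0.0641, 0.184 and 0.0637 by permutation.

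**Figure D5:**
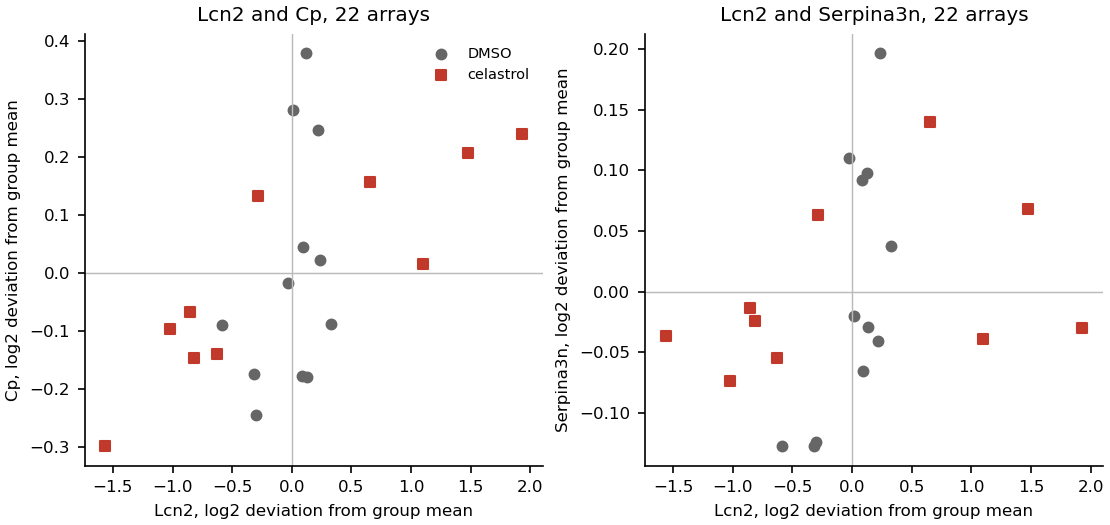
Deviation from the group mean, in log2 units, of Lcn2 (x axis) against Cp (left) and Serpina3n (right) on 22 arrays, grey circles for DMSO and red squares for celastrol. Celastrol arrays spread from -1.56 to 1.93 in Lcn2, and the Cp deviations correlate with them with r = 0.60.

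Lcn2 is also a granule protein of neutrophils, whose markers were therefore read beside it. None of the 13 neutrophil genes measured was bright enough to be tested, and their mean level lay at 6.36 to 6.55 in DMSO arrays and 6.39 to 6.60 in celastrol arrays. S100a8 lay at 6.01 to 6.39 and 6.18 to 6.49, and S100a9 at 6.52 to 6.91 and 6.60 to 6.98. The deviations of Lcn2 and of the neutrophil mean had r = -0.54 (permutation p = 0.016, adjusted p = 0.192). Liver markers, 7 genes, lay at 6.98 to 7.33 in DMSO and 7.01 to 7.30 in celastrol arrays, with albumin (Alb) at 5.69 to 6.52 and 5.71 to 6.42.

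Markers of vessels and glia overlapped between treatments when all times are read together. The mean of 11 endothelial genes lay at 9.12 to 9.32 in DMSO and 9.16 to 9.36 in celastrol arrays, and that of 10 astrocyte genes at 11.33 to 11.49 and 11.39 to 11.61. At 4 days 9 of the 11 endothelial genes were higher, with a median of 0.07, against 56.1% of all 18704 genes. The count was 7 at 6 h and 3 at 1 day, against 52% and 50.6% of all genes. At 4 days 0.0506% of all genes tested passed, and none of the 10 endothelial genes tested did. Among them Vwf (von Willebrand factor) differed by 0.46 (SE 0.09, adjusted p = 0.0709, limma) and Tek (the angiopoietin receptor) by 0.24 (SE 0.05, adjusted p = 0.123), both chosen after their values were seen. All 10 astrocyte genes were higher on the average, with a median of 0.02, and 3 of 10 at 4 days, against 54.7% and 56.1% of all 18704 genes. At 4 days, too, the mean of 11 genes of microglia and macrophages did not overlap, with 8.79 to 8.88 in DMSO and 9.0 to 9.04 in celastrol arrays, and 10 of the 11 were higher, against 56.1% of all 18704 genes at that time. Every celastrol array was above every DMSO array at that time for 4.27% of single genes tested, and the share over means of lists was not taken. The mean of 2 red cell genes at 1 day did not overlap either, with 7.96 to 8.19 in DMSO and 8.20 to 8.24 in celastrol arrays. At 4 days 0.0506% of all genes tested passed, and none of the 7 microglia and macrophage genes tested did. Itgam, a dim gene of myeloid cells chosen after its values were seen, differed by 0.32 (SE 0.05, adjusted p = 0.0463, limma without a filter on level). It was among the 0.016% of 18704 genes that passed in that fit. The part of vessel and myeloid cells in the values of Lcn2 and Hp at 4 days was not tested. Choroid plexus, a neighbouring tissue, expresses Cp. Its 9 marker genes measured lay at 7.59 to 7.93 in DMSO and 7.57 to 7.81 in celastrol arrays, with Ttr dim at 7.12 to 7.59 and 6.93 to 7.62. The deviations of Cp and of this mean had r = 0.50 (permutation p = 0.0475, adjusted p = 0.317). Without the 2 arrays farthest in Cp r was 0.21, and the part of choroid plexus in the values of Cp was not tested. Pituitary genes lay at 7.05 to 9.42 and 7.14 to 9.11.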

How the data were processed

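The authors deposited log2 intensities per probe set made with RMA, per the submitters' processing notes (version not given in the sources used here). RNA was labelled with a whole-transcript Affymetrix kit, per the labels' protocols. RMA compresses ratios of dim probe sets. Of 23492 probe sets, the platform's annotation gave 20228 a single symbol, 1399 several and 1865 none. The 20228 name 18704 genes, and the brightest probe set stood for each of the 809 genes with several. Of these, 9880 exceeded the median of the array on 3 or more arrays and were tested; 8824 were dim.

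A linear model of 6 group means over all 22 arrays (limma 3.58.1, R 4.3.3; lmFit and eBayes, two-sided; 16 residual and 6.06 prior degrees of freedom) was adjusted by Benjamini-Hochberg over all genes tested. Dim genes come from the same model without the filter. Exact permutation tests, two-sided, exchanged labels within times. With 4 against 4 or 3 against 4 arrays their smallest p is 0.0286. Correlations used 100000 permutations (scipy 1.17.1). The number of arrays limits the precision.

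Named genes were the 5 genes, any listed gene that passed, otherwise the 2 of smallest p per list, 7 regulators, and the genes of highest r. Other listed genes, such as Tfrc and Itgam, were picked with their values in view. The 5 genes and the lists were chosen with earlier results of these data known. The steps were tested on simulated data.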

Additional observations from a re-analysis of the deposited data

Results flagged for a closer look

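Among 20 sets of 4 arrays (a gene in a group), 3 held an array whose gap to its nearest neighbour was large for the range of the set; chance alone gives about 1 in 20. In DMSO at 6 h, Lcn2 of replicate 1 was 6.67, and the other arrays lay at 7.38 to 7.49. In DMSO at 1 day, Lcn2 of replicate 2 was 6.61, and the others lay at 7.0 to 7.03. In DMSO at 6 h, Slc22a17 of replicate 2 was 12.19, and the others lay at 12.41 to 12.44. All 3 were the lowest array of their group. Without DMSO 6 h replicate 1 the Lcn2 difference at 6 h was 1.10, and without DMSO 6 h replicate 2 the difference of Slc22a17 at 6 h was -0.01. The celastrol groups of 3 arrays were too small to be examined in this way.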

How the results depend on the processing

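The Lcn2 difference kept its direction under every alternative that tested it, 34 at each time and 33 on the average; the stricter filter on level (11 arrays) does not test it. With limma-trend its average of 1.68 passed (adjusted p = 0.0462), as it did with the leading residual component as a covariate (1.68, adjusted p = 0.022) and in 3 of 22 fits that left out an array; over all settings its adjusted p ran from 0.0132 to 0.326 (limma). Over all 18704 genes, combinations chosen after seeing the data, it was 0.028 with limma-trend, 0.0417 with the residual component and 0.0276 to 0.357 without single arrays, of which 1 passed. It did not pass with array weights (0.099), robust eBayes (0.293) or the replicate number as a block (0.495, limma). Without the 2 least typical arrays it did not pass either (0.223, limma). Leaving out each array in turn gave 0.65 to 1.82 at 6 h, 1.06 to 2.22 at 1 day, 1.41 to 2.37 at 4 days and 1.44 to 1.86 on the average.

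Counts of genes that passed were 0 at 6 h throughout. At 1 day the 0 became 1 with no filter, 5 with array weights, 5 with the residual component and 0 to 4 without single arrays. At 4 days the 5 became 3 with no filter, 0 with all probe sets, 3 with quantile normalization again, 8 with limma-trend, 1 with robust eBayes, 16 with array weights, 13 with the residual component, 3 without the 2 least typical arrays (DMSO 1 day replicate 1, celastrol 1 day replicate 2) and 0 to 9 without single arrays. On the average the 6 became 1 with the stricter filter and 4 to 9 without single arrays. DMSO groups gave 0 to 46, 0 to 147 and 0 to 168 for 1 day against 6 h, 4 days against 6 h and 4 days against 1 day. The cause was not tested.

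Small differences changed sign. Array weights gave -0.036 for Slc22a17 and -0.019 for Cp at 1 day, -0.015 for Slc22a17 on the average and -0.081 for Lcn2 at 1 day against 6 h. Without the 2 least typical arrays Slc22a17 was -0.065 at 1 day and -0.018 on the average, and Lcn2 was -0.18 at 4 days against 1 day. Leaving out single arrays gave -0.013 to 0.071, -0.039 to 0.033 and -0.014 to 0.015 for Slc22a17 at 6 h, at 1 day and on the average, -0.028 to 0.20 for Cp at 1 day, and -0.24 to 1.15 and -0.39 to 0.90 for Lcn2 at 1 day against 6 h and 4 days against 1 day. Of 26 further differences of these genes between times or between DMSO groups, 10 changed sign in at least 1 fit (33 of 894 fits), and none passed in any. The correlation of Lcn2 with Cp stayed past the threshold without any single array (r of 0.53 to 0.65) and lost the call within DMSO arrays, within celastrol arrays and without the 2 arrays farthest in Lcn2.

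Replicate numbers did not pair the arrays: same-numbered arrays correlated from -0.24 to 0.41, with 2 of 10 pairs above 0.1 and 2 of 10 best matches with their own number. With the replicate number as a block, the Lcn2 difference was 1.64 on the average, and the count of genes was 1 at 1 day, 0 at 4 days and 4 on the average; Acer2 (0.37) and Ptgs2 at 4 days (0.96) lost their calls, adjusted p = 0.0502 and 0.0604.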

Other observations

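Nfkbia, the inhibitor that NF-kB induces as its own brake, had a difference of opposite sign at 6 h and at the later times. At 6 h it lay at 9.36, 9.24, 9.56 and 9.27 in DMSO arrays and at 9.14, 9.08, 9.22 and 9.37 in celastrol arrays. At 4 days it lay at 9.24, 9.29, 9.32 and 9.12 in DMSO arrays and at 9.85, 9.54 and 9.54 in celastrol arrays. Every celastrol array of that time was above every DMSO array, as for 4.27% of all genes tested. The difference was -0.15 at 6 h (SE 0.08), 0.36 at 1 day (SE 0.09) and 0.40 at 4 days (SE 0.09). The change between 6 h and 4 days was 0.55 (SE 0.12, unadjusted p = 1.38e-04, adjusted p = 0.474, limma), which did not pass over all genes.

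Ferroportin, the exporter through which cells release iron (Slc40a1), had log2 differences, celastrol minus DMSO, of -0.20 at 6 h, -0.37 at 1 day and -0.10 at 4 days. In the fit without a filter on level the adjusted p was 0.998, 0.473 and 1 (limma), so no time passed. Tfrc, the transferrin receptor, differed by -0.08 on the average (SE 0.04).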
